A study of Mus musculus with 15 samples.

Results

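Serpinf1 and 7 other serpin genes (Serpine2, Serpinh1, Serpinb1a, Serpinb6a, Serpinb8, Serpinb9 and Serping1) were followed in 15 RNA-seq libraries of cultured mouse kidney cells. They were taken by symbol from the 24421 genes of the deposited count table, which lists 63 symbols of the serpin family. Serpinf1 was selected on its measured level, chosen by its lower counts in knockout (KO) than in wild-type (WT) cells of both sexes, so its KO values are a description without a test. The libraries came from primary proximal tubule cells of C57BL/6 mice with a Diet1 KO or WT genotype, passaged once before RNA isolation. The groups were female KO (n = 4), female WT (n = 4), male KO (n = 3) and male WT (n = 4). The age of the mice and the construction of the KO allele are not given in the sources used here. For each group, cells of 3 to 4 mice were pooled and divided into technical replicates. The p-values therefore cover variation among libraries drawn from 1 pool, and not that between mice or cultures.

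Serpins are a family of proteins named for serine protease inhibition. An inhibitory serpin offers an exposed loop as bait, and after the protease cuts this loop the serpin changes shape and traps the enzyme in a covalent complex. Serpine2 (protease nexin 1) and Serping1 (C1 inhibitor) are secreted inhibitors of this kind, the clade B serpins work mainly inside cells, and Serpinf1 and Serpinh1 are relatives without inhibitory activity. Serpinf1 encodes pigment epithelium-derived factor (PEDF), a secreted protein that restrains blood vessel growth and binds collagen. Serpinh1 encodes HSP47, a chaperone of the endoplasmic reticulum that binds folded procollagen. In the kidney, PEDF has been studied mainly in diabetic nephropathy.

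Depth was 17648416 to 30896637 counts per library. Levels are CPM, counts put on the same depth, after TMM scaling, which corrects for differences in library composition, and a gene was called changed at a Benjamini-Hochberg adjusted p below 0.05 in edgeR's quasi-likelihood test over 13912 genes. The counts were at least 130 per library for Serpinf1. Defining transporters of the proximal tubule were near 0, with Slc34a1 at a mean of 0 CPM in both KO groups. The kidney epithelial genes Pax8 and Cdh16 were present, at 115.6 and 224.6 CPM in female KO. The summed proximal tubule list was 510.6 to 540.7 CPM in female KO, 598 to 623 in female WT, 607.2 to 625.7 in male KO and 588.4 to 650.5 in male WT. Markers of fibroblasts, smooth muscle and podocytes were also present in every library.

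Serpinf1 was highest in female WT cells and lowest in male KO cells. Its level was 11.47, 11.63, 10.67 and 11.25 CPM in the female KO libraries, against 39.17, 41 (replicate 2), 37.63 and 35.09 CPM in the female WT libraries. In males the level was 6.467, 6.757 and 6.381 CPM in the KO libraries, against 14.37, 11.55, 12.27 and 12.59 CPM in the WT libraries. In neither sex did the KO and WT ranges overlap, and the highest female KO library just exceeded the lowest male WT library. The fitted log2 fold change was -1.76 ± 0.066 (SE) in females, 3.39-fold lower in KO, and -0.97 ± 0.091 in males, 1.96-fold lower in KO. Between these, the female minus male difference was -0.79 ± 0.12 on the log2 scale, and it is given without a test. Leaving out any 1 library kept the log2 fold change between -1.80 and -1.73 in females and between -1.01 and -0.90 in males. Over all 13912 tested genes, the Serpinf1 fold change ranked 25 from the most negative in female KO and 149 in male KO, and among the 10667 that averaged 5 CPM or more it ranked 4 and 25.

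The sex difference in Serpinf1 was tested. The gene was chosen by KO against WT within each sex and not by a comparison of the sexes. That choice used these same libraries, so the test is not independent of it. Female WT cells held 38.2 ± 2.5 CPM (SD, n = 4) and male WT cells 12.7 ± 1.2 CPM (SD, n = 4), a 2.97-fold difference (log2 1.57 ± 0.064, adjusted p = 9.83e-20, edgeR). Female KO cells held 11.25 ± 0.42 CPM (SD, n = 4) and male KO cells 6.54 ± 0.20 CPM (SD, n = 3), a 1.72-fold difference (log2 0.78 ± 0.094, adjusted p = 1.95e-07, edgeR). All female libraries were above all male libraries of the same genotype. Per kilobase of exon, Serpinf1 averaged 7.58 CPM over the 15 libraries, at the 57.8th percentile of the genes tested.

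**Figure D1:**
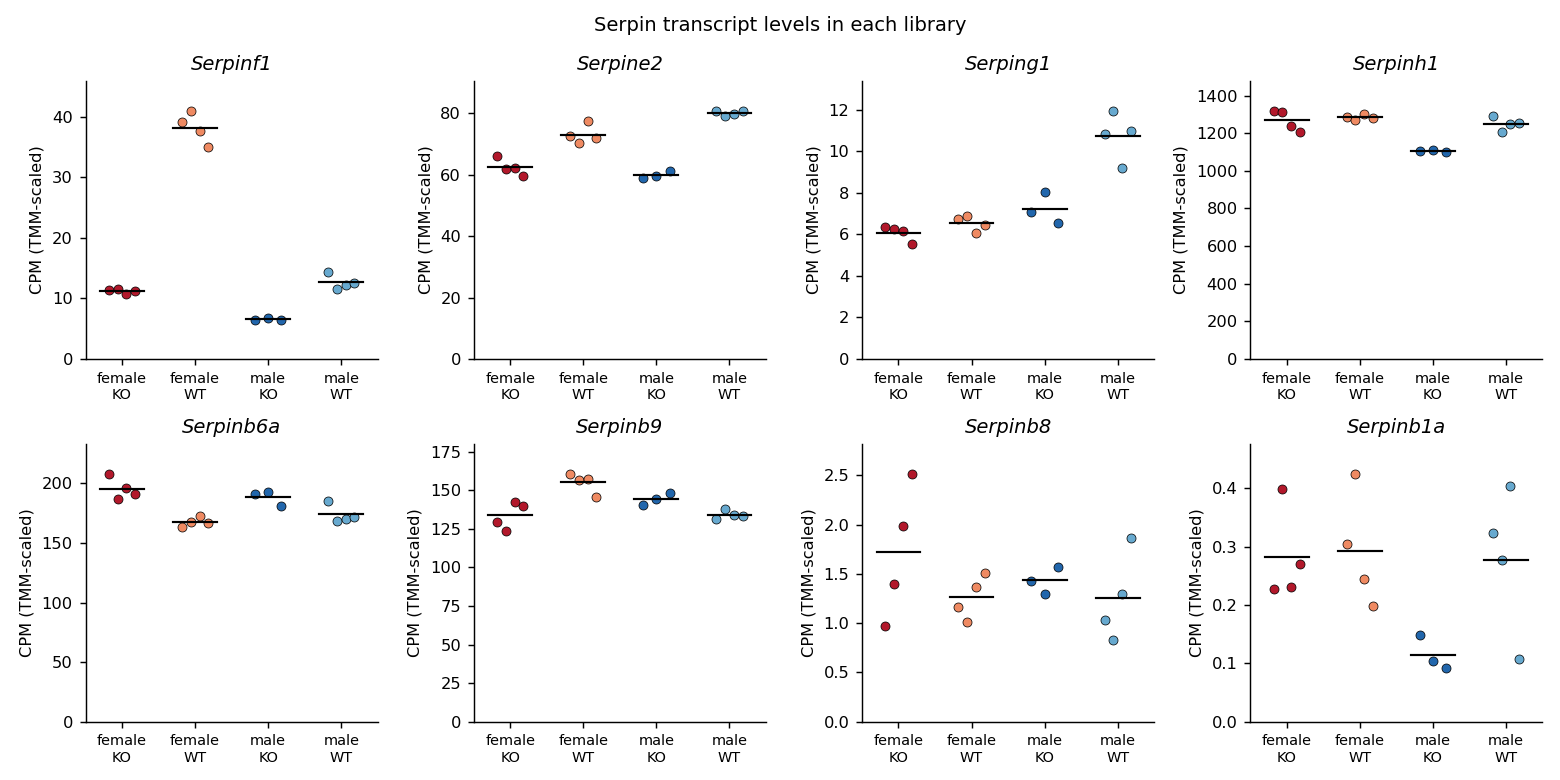
Levels of the 8 serpin genes in each library, as TMM-scaled CPM on axes that start at 0. Each point is a library and each bar the mean of its group (female KO n = 4, female WT n = 4, male KO n = 3, male WT n = 4). The 4 female WT libraries stand above all others for Serpinf1, and Serpinb1a stays below 0.5 CPM throughout.

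Serpinf1 lies on the minus strand of chromosome 11, at chr11:75409769-75422701 (GRCm38, GENCODE M21). Serpine2, the other gene of the 8 whose KO libraries were all below the WT libraries in both sexes, lies on the minus strand of chromosome 1, at chr1:79794197-79861180. The stretches before their RefSeq starts (GRCm38.p6) are shown because both genes moved down in both sexes, and they differ in base composition. GC content over 250 bases before the start was 51.6% for Serpinf1 and 78.8% for Serpine2. The last 78 bases for Serpinf1 and the last 31 for Serpine2 are left out of the sequences because GENCODE places them in an exon. What is printed runs 5′ to 3′ on the gene's strand, covering chr11:75422702-75422873 and chr1:79858697-79858915. Capitals mark AGGTCA, the nuclear receptor half-site, in Serpinf1 (read here on the other strand as TGACCT) and the GC box GGGCGG in Serpine2.
Serpinf1: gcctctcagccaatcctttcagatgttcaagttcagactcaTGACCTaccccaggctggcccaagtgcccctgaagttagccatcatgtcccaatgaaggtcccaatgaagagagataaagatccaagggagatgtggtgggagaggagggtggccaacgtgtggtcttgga
Serpine2: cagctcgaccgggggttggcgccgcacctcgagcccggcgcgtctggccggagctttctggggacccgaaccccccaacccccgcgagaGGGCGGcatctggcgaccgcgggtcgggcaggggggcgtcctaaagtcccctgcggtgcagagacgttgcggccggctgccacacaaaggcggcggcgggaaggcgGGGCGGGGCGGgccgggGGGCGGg

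The Serpinf1 window held 1 AGGTCA match, which begins 209 bases before the start, and no GGGCGG. The full Serpine2 window held 6 GGGCGG matches, of which some overlap and 4 are in the printed stretch, and no AGGTCA. Searched on both strands of 32851 RefSeq windows of the same length, AGGTCA was found at least once in 14% and GGGCGG in 32.7%. Among the other serpins with a window, 1 of 2 Serpinb6a windows held 2 matches to TTCNNGAA, the core of a heat shock element, which 7.17% of windows hold at least once and 0.344% at least 2 times. The windows of Serpinf1, Serpine2, Serpinh1, Serpinb8 and Serpinb9 held none. In all, 6 of the 8 genes had an entry. A match of letters does not show a bound site. The RefSeq start of Serpine2 lies within the GENCODE gene, and the Serpinf1 window overlaps the unlisted noncoding gene Gm12336 on the same strand.

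Beyond Serpinf1, 6 of the 7 other genes passed the filter on low counts. In male KO cells 4 of these 6 were called, 1 higher and 3 lower, where 20.2% of all tested genes were called (10.1% higher and 10.1% lower). In female KO cells 3 of 6 were called, 1 higher and 2 lower, where 39.3% of all tested genes were called (20.7% higher and 18.6% lower). Their median log2 fold change was -0.06 in females and -0.04 in males, against a median of 0 over all tested genes in each sex. The KO effect differed between the sexes for 4 of the 6, 3 with a positive female minus male difference and 1 with a negative one, where 15.6% of all tested genes had such a difference (9.76% positive and 5.89% negative).

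Serpine2, whose product inhibits thrombin, urokinase and tissue plasminogen activator at the cell surface, fell in both sexes. Its level was 66.01, 62 (replicate 2), 62.24 and 59.57 CPM in female KO, against 72.51, 70.31, 77.42 and 71.92 CPM in female WT. Male libraries had 59 (replicate 1), 59.46 and 61.32 CPM in KO, against 80.7, 79.17, 79.92 and 80.8 CPM in WT. KO and WT ranges did not overlap in either sex. The log2 fold change was -0.23 ± 0.037 in females (adjusted p = 7.24e-06, edgeR) and -0.42 ± 0.040 in males (adjusted p = 7.21e-10, edgeR). The fall was smaller in females by 0.19 ± 0.055 on the log2 scale (adjusted p = 0.0131, edgeR). That difference was not called with library size as the only scaling (adjusted p = 0.0531) or without male KO replicate 1 (adjusted p = 0.0546). Female WT cells held less Serpine2 than male WT cells (log2 -0.13 ± 0.036, adjusted p = 0.00464, edgeR), and between the KO groups the log2 difference was 0.06 with an adjusted p of 0.484 (edgeR).

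Serping1, whose product C1 inhibitor blocks the first proteases of the classical complement pathway and plasma kallikrein, was a low transcript that fell in male KO cells. Its level was 7.06, 8.056 and 6.566 CPM in male KO, against 10.81, 11.94, 9.203 and 10.99 CPM in male WT, with no overlap (log2 -0.57 ± 0.098, adjusted p = 4.6e-05, edgeR). In females it was 6.333, 6.239, 6.141 and 5.534 CPM in KO and 6.739, 6.861, 6.053 and 6.463 CPM in WT. These ranges overlap, and the log2 difference was -0.11 with a 95% interval from -0.33 to 0.12 (adjusted p = 0.422, edgeR). The female minus male difference in KO effect was 0.46 ± 0.14 (adjusted p = 0.0229, edgeR), and the call was lost in 4 of the 15 fits that leave out a library, with adjusted p up to 0.0919. Those 4 fits left out male WT replicate 2, male KO replicate 1, male KO replicate 3 or female WT replicate 3, and gave differences of 0.40, 0.44, 0.39 and 0.42. Female WT cells held 1.64-fold less Serping1 than male WT cells (log2 -0.71 ± 0.091, adjusted p = 1.56e-07, edgeR).

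Serpinh1 was by far the most abundant of the 8 genes, at the 99.8th percentile of tested genes per kilobase of exon. In females its level was 1319, 1312, 1236 and 1206 CPM in KO and 1286, 1269, 1303 and 1279 CPM in WT. These ranges overlap, and the log2 difference of -0.02 had a 95% interval from -0.08 to 0.04 (adjusted p = 0.618, edgeR). Male libraries had 1104, 1112 and 1098 CPM in KO, against 1292, 1206, 1251 and 1253 CPM in WT, without overlap (log2 -0.18 ± 0.029, adjusted p = 1.26e-05, edgeR). For Serpinh1 the female minus male difference in KO effect was 0.16 ± 0.039 (adjusted p = 0.00301, edgeR). Female KO cells held more Serpinh1 than male KO cells (log2 0.20 ± 0.029, adjusted p = 5.03e-06, edgeR), and the WT difference of 0.04 was not called (adjusted p = 0.298, edgeR).

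The clade B genes Serpinb6a and Serpinb9 lie on chromosome 13, together with Serpinb1a, and both were well expressed. Serpinb6a, an intracellular inhibitor of trypsin-like proteases and cathepsin G, was 208.3, 187.2, 196 (replicate 3) and 191.3 CPM in female KO, against 163.1, 167.4, 173 (replicate 3) and 166.4 CPM in female WT. Its female KO libraries were all above the WT libraries (log2 0.22 ± 0.034, adjusted p = 1.84e-06, edgeR). In males it was 190.8, 192.7 and 181.2 CPM in KO and 185.5, 168.7, 170.2 and 172.1 CPM in WT, with overlap. The male log2 fold change of 0.11 ± 0.036 was called (adjusted p = 0.028, edgeR), and 5 of the 15 fits without 1 library lost the call. Those fits left out male WT replicate 2, 3 or 4 or male KO replicate 1 or 2, with adjusted p of 0.0757, 0.0739, 0.0573, 0.091 and 0.137. Serpinb6a is overlapped on the opposite strand by Ripk1, Nqo2 and 1110046J04Rik. The strand setting of the counting is not given in the sources used here, so reads of these genes may be mixed.

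Serpinb9, an intracellular inhibitor of granzyme B, was 129.2, 123.4, 142.4 and 139.8 CPM in female KO, against 160.9, 157 (replicate 2), 157.3 and 145.8 CPM in female WT. Every female KO library was below every female WT library (log2 -0.21 ± 0.037, adjusted p = 2.71e-05, edgeR). In males it was 140.5, 144.4 and 148.1 CPM in KO and 131.2, 137.8, 134.3 and 133.2 CPM in WT. The male KO libraries were all above the WT libraries, and the log2 difference of 0.11 ± 0.040 missed the threshold (adjusted p = 0.059, edgeR), which it passed with only the male groups in the fit (adjusted p = 0.0341) and without female WT replicate 4, female KO replicate 2 or female KO replicate 3 (adjusted p 0.0467, 0.0351 and 0.0399). The female minus male difference in KO effect was -0.32 ± 0.055 (adjusted p = 6.54e-05, edgeR). Female WT cells held more Serpinb9 than male WT cells (log2 0.21 ± 0.037, adjusted p = 4.53e-05, edgeR).

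Serpinb8, whose human counterpart inhibits furin, and Serpinb1a, an inhibitor of neutrophil proteases, were at the edge of detection. Serpinb8 ranged from 0.97 to 2.52 CPM in female KO, 1.01 to 1.51 in female WT, 1.30 to 1.57 in male KO and 0.83 to 1.87 in male WT. The groups overlap in both sexes, and neither KO effect was called (log2 0.46 ± 0.25 in females, adjusted p = 0.142, and 0.21 ± 0.27 in males, adjusted p = 0.653, edgeR). Without female KO replicate 1 the female difference was called (log2 0.63, adjusted p = 0.0338). Serpinb1a had 2 to 10 counts per library, where 3 counts correspond to 0.0971 to 0.171 CPM, and did not pass the filter. Differences in Serpinb1a were therefore not tested in the fit of 13912 genes. Between the sexes, 4 of the 7 tested genes differed in WT cells, 2 higher and 2 lower in females, where 28.6% of all tested genes did (12.6% higher and 16% lower). In KO cells 2 of 7 differed, both higher in females, where 9.2% of all tested genes did (4.94% higher). Serpinf1 is among the genes that differed in both comparisons, and it was chosen on its levels in these same libraries. These 2 counts are therefore not independent of that choice. The other genes called were Serpinb9 (higher in females) and Serping1 and Serpine2 (lower) in WT cells, and Serpinh1 (higher) in KO cells.

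**Figure D2:**
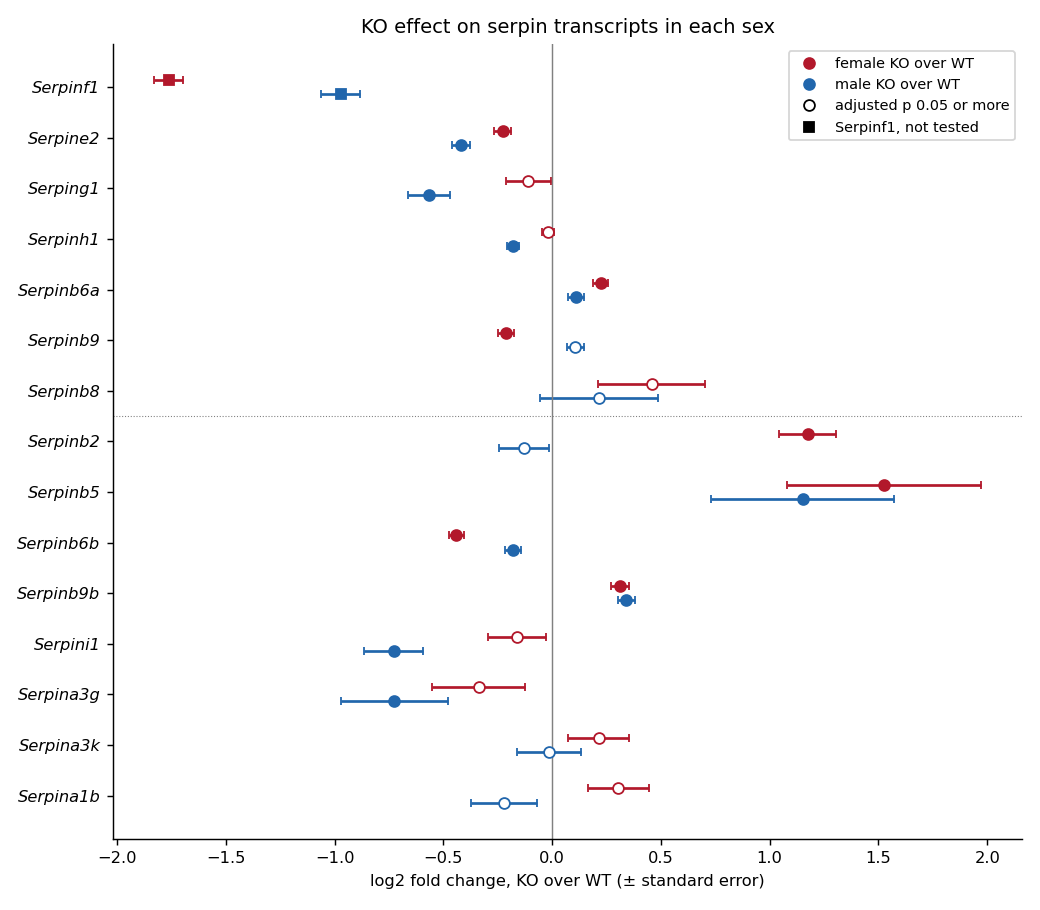
Log2 fold changes of KO over WT (x axis, ± SE) for 7 of the 8 serpin genes and, under the dotted line, 8 further serpins, with females (red) above males (blue). Open circles have an adjusted p of 0.05 or more, and squares mark Serpinf1, whose change is not tested. Serpinf1 lies farthest to the left in both sexes, and Serpinb2 lies right of 0 in females and, as an open circle, left of 0 in males.

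Of the 54 other serpin symbols described, 17 passed the filter, 37 did not and 8 of these had no count in any library. In female KO cells 3 of the 17 rose (Serpinb5, Serpinb2 and Serpinb9b) and 1 fell (Serpinb6b), with a median log2 fold change of 0.21. These 4 are 23.5% of the 17, where 39.3% of all tested genes were called. In male KO cells 2 rose (Serpinb5 and Serpinb9b) and 3 fell (Serpini1, Serpina3g and Serpinb6b), with a median of -0.11. These 5 are 29.4% of the 17, where 20.2% of all tested genes were called.

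Serpinb2, the plasminogen activator inhibitor PAI-2, was 5.97 ± 0.56 CPM in female KO and 2.59 ± 0.67 CPM in female WT (SD, n = 4 each; log2 1.17 ± 0.13, adjusted p = 5.92e-09, edgeR). In males it was 6.75 ± 0.089 CPM in KO (SD, n = 3) and 7.39 ± 0.28 CPM in WT (SD, n = 4; log2 -0.13 ± 0.12, adjusted p = 0.482, edgeR). For Serpinb2 the difference in KO effect, female minus male, was 1.30 ± 0.18 (adjusted p = 9.6e-07, edgeR). Serpinb6b, a mouse paralog of Serpinb6a, fell in both sexes, where Serpinb6a rose. It was 89.7 ± 4.5 CPM in female KO and 122 ± 4.3 CPM in female WT (SD, n = 4 each; log2 -0.44 ± 0.035, adjusted p = 1.81e-12, edgeR), and its male log2 fold change was -0.18 ± 0.037 (adjusted p = 0.000404, edgeR). Its female minus male difference was -0.26 ± 0.051 (adjusted p = 0.00026, edgeR).

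Serpinb9b, a paralog of Serpinb9, rose in both sexes, by 0.31 ± 0.040 in females (adjusted p = 1.02e-07, edgeR) and 0.34 ± 0.041 in males (adjusted p = 6.69e-08, edgeR). In females this was opposite to Serpinb9. Serpini1, the gene of neuroserpin, was 3.28 ± 0.30 CPM in male KO (SD, n = 3) and 5.43 ± 0.39 CPM in male WT (SD, n = 4; log2 -0.73 ± 0.13, adjusted p = 9.5e-05, edgeR), and its female log2 difference was -0.16 (adjusted p = 0.362, edgeR). The female minus male difference for Serpini1 was 0.57 ± 0.19 (adjusted p = 0.037, edgeR), and the call was lost in 10 of the 15 fits without 1 library. Serpini1 was still called only without male WT replicate 4, male KO replicate 3, female WT replicate 4 or female KO replicate 1 or 2, and the highest adjusted p was 0.107 (without female KO replicate 4, difference 0.48). Serpinb5 (maspin) was called higher in both sexes, from 1 to 19 counts per library. Its libraries had 0.4155 to 0.8558 CPM in female KO and 0.03965 to 0.3905 in female WT. In males they had 0.5431 to 0.8786 CPM in KO and 0.1067 to 0.4997 in WT. Serpinb5 thus passed the filter on low counts mainly through its KO libraries, which favours a call in this direction. It is among the serpins counted above as risen. Its male call (adjusted p = 0.0489, edgeR) was lost in 9 of the 15 fits without 1 library, including every fit without a male KO library, with adjusted p up to 0.224 (without male KO replicate 3). Serpina3g was called lower in male KO (log2 -0.73 ± 0.25, adjusted p = 0.033, edgeR), and 4 of those 15 fits lost the call, those without male WT replicate 2 or 3 or male KO replicate 1 or 3 (adjusted p 0.0803, 0.1, 0.0932 and 0.129). Neither Serpina3k nor Serpina1b was called in either sex.

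Some of these genes share sequence with close copies. Of all 50-base words in the annotated transcripts, 29.5% of those of Serpina1b, 15.5% of Serpina3g, 14% of Serpina3k, 10.4% of Serpinb2, 2.92% of Serpinb6b and 2.81% of Serpinb1a occur in another gene. How the counting split such reads is not given in the sources used here, so values of the Serpina1 and Serpina3 families are uncertain. The shares were 0 for Serpinf1, Serpinh1 and Serping1, and under 1% for Serpine2, Serpinb6a, Serpinb8, Serpinb9 and Serpinb9b.

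Genes that work with these serpins were described by list. Among 23 tested serine proteases and their receptors, 6 rose and 7 fell in female KO, and 7 rose and 5 fell in male KO. The called shares were 56.5% in females and 52.2% in males, beside 39.3% and 20.2% of all tested genes. The receptor of urokinase, Plaur, rose in both sexes, to 88.9 ± 0.90 CPM in female KO against 60.7 ± 1.6 CPM in female WT (SD, n = 4 each; adjusted p = 7.03e-15, edgeR), and by 0.15 ± 0.036 on the log2 scale in males (adjusted p = 0.00302, edgeR). Tissue factor, F3, the trigger of clotting, rose by 0.40 ± 0.025 in females (adjusted p = 5.18e-15, edgeR) and 0.41 ± 0.027 in males (adjusted p = 8.18e-14, edgeR). Urokinase itself, Plau, fell in female KO (log2 -0.18 ± 0.025, adjusted p = 3.48e-07, edgeR) and rose in male KO (log2 0.11 ± 0.027, adjusted p = 0.00368, edgeR). Tissue plasminogen activator, Plat, moved the other way, higher in female KO (log2 0.31 ± 0.034, adjusted p = 5.28e-09, edgeR) and lower in male KO (log2 -0.21 ± 0.037, adjusted p = 3.75e-05, edgeR).

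Among 14 tested PEDF receptors and serpin uptake receptors, 6 rose and 5 fell in female KO, and 5 rose and 4 fell in male KO. That is 78.6% called in females and 64.3% in males, beside 39.3% and 20.2% of all tested genes. Pnpla2, a lipase that can bind PEDF, was 102 ± 0.96 CPM in female KO and 95.6 ± 3.6 CPM in female WT (SD, n = 4 each; log2 0.09 ± 0.033, adjusted p = 0.0259, edgeR), and its male log2 fold change was 0.11 ± 0.035 (adjusted p = 0.0244, edgeR). The female Pnpla2 call was lost without female WT replicate 3 or 4 or female KO replicate 1 or 2 (adjusted p 0.0517 to 0.118) and when scaled by library size alone (adjusted p = 0.21), and the male call without male WT replicate 3 or male KO replicate 2 or 3 (adjusted p 0.0905, 0.131 and 0.0737). Plxdc2, a membrane receptor reported for PEDF, rose in female KO (log2 0.16 ± 0.036, adjusted p = 0.000548, edgeR) and fell in male KO (log2 -0.28 ± 0.039, adjusted p = 1.27e-06, edgeR). Lrp1, which clears serpin-protease complexes, fell in male KO to 495 ± 21 CPM (SD, n = 3), against 650 ± 45 CPM in male WT (SD, n = 4; adjusted p = 0.000286, edgeR), and was not called in females (log2 0.12, adjusted p = 0.116, edgeR), where it was called without female WT replicate 4 (log2 0.15, adjusted p = 0.0247). Lrp2 (megalin), the endocytic receptor of the proximal tubule, fell in both sexes, by 0.68 in females (adjusted p = 2.71e-09, edgeR) and 0.44 in males (adjusted p = 4.44e-05, edgeR) on the log2 scale.

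For Serpinh1, the list held collagen chains and the enzymes that fold and modify collagen. Of 31 tested, 4 rose and 7 fell in female KO, with a median log2 fold change of -0.002, and 0 rose and 23 fell in male KO, with a median of -0.29. The female share of 35.5% was near the 39.3% called over all tested genes, and the male share was 74.2%, beside 20.2%. The difference in KO effect, female minus male, was called for 19 of the 31 (61.3%, beside 15.6% of all tested genes), all 19 with a positive sign. Col1a1 was 1413 ± 61 CPM in female KO and 1946 ± 85 CPM in female WT (SD, n = 4 each; log2 -0.46 ± 0.041, adjusted p = 6.76e-08, edgeR), and 964 ± 60 CPM in male KO (SD, n = 3) and 1770 ± 66 CPM in male WT (SD, n = 4; log2 -0.88 ± 0.045, adjusted p = 1.66e-10, edgeR). The basement membrane chains Col4a1 and Col4a2 rose in female KO (log2 0.52 and 0.49, adjusted p = 2.06e-10 and 2.07e-15, edgeR) and fell in male KO (log2 -0.23 and -0.25, adjusted p = 0.000146 and 1.97e-07, edgeR). The prolyl hydroxylase subunit P4ha1 fell in male KO (log2 -0.34 ± 0.036, adjusted p = 7.44e-09, edgeR) and was not called in females (log2 -0.04, adjusted p = 0.357, edgeR). Lox, the collagen cross-linking enzyme, fell by 0.22 in females (adjusted p = 0.00983, edgeR) and by 0.89 in males (adjusted p = 3.13e-07, edgeR).

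**Figure D3:**
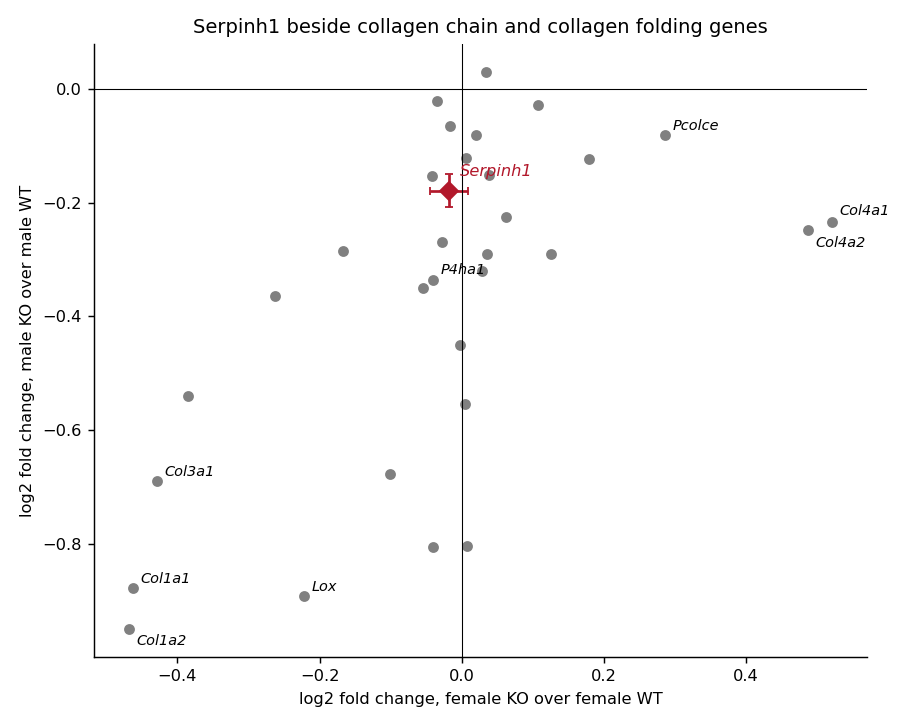
Log2 fold change of KO over WT in females (x axis) and males (y axis) for the 31 tested collagen chain and collagen folding genes (grey points) and Serpinh1 (red, ± SE). Most points lie below 0 on the male axis, the type I and III collagen chains lie below 0 on both axes, and Col4a1 and Col4a2 lie above 0 in females and below 0 in males.

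Serpinh1 is also a target of the heat shock response in other settings, and 17 genes of that response were tested. In female KO 9 rose and 2 fell, and in male KO 6 rose and 1 fell. Of the 17, 64.7% were called in females and 41.2% in males, beside 39.3% and 20.2% of all tested genes. Hsp90ab1 rose in both sexes (log2 0.18 ± 0.022 in females, adjusted p = 4.1e-08, and 0.07 ± 0.024 in males, adjusted p = 0.0297, edgeR), and the male call was lost without male WT replicate 2, 3 or 4 or male KO replicate 1 or 3 (adjusted p 0.056 to 0.0954). Hspa1a fell in female KO (log2 -0.32 ± 0.098, adjusted p = 0.00814, edgeR; 0.0591 without female WT replicate 3) and was not called in males (log2 0.10, adjusted p = 0.6, edgeR).

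In the complement list, which holds the targets of Serping1, 6 of 24 tested genes rose and 5 fell in female KO, and 2 rose and 6 fell in male KO. The female share of 45.8% was near the 39.3% of all tested genes, and the male share was 33.3%, beside 20.2%. The C1 inhibitor targets C1ra and C1s1 both fell in both sexes. C1ra was 1.67 ± 0.38 CPM in female KO and 2.91 ± 0.44 CPM in female WT (SD, n = 4 each; adjusted p = 0.000312, edgeR), and its male log2 fold change was -0.92 ± 0.18 (adjusted p = 0.000159, edgeR). C1s1 was 11.5 ± 1.8 CPM in male KO (SD, n = 3) and 17.3 ± 0.79 CPM in male WT (SD, n = 4; adjusted p = 3.64e-06, edgeR), with a female log2 fold change of -0.33 ± 0.098 (adjusted p = 0.0065, edgeR). C3 fell by 0.45 in females (adjusted p = 0.000146, edgeR) and 0.52 in males (adjusted p = 0.000172, edgeR) on the log2 scale. The genes C1qa and C1qb, which macrophages express, rose in both sexes. C1qa was 7.49 ± 1.0 CPM in female KO and 4.34 ± 0.58 CPM in female WT (SD, n = 4 each; adjusted p = 2.92e-06, edgeR), and both genes are also in the leukocyte marker list. Without C1qa and C1qb, the other 10 leukocyte markers summed to 35 to 44.5 CPM in female KO libraries, 29.5 to 35.8 in female WT, 27.2 to 29.1 in male KO and 19.3 to 22 in male WT. The male KO and WT ranges of that sum do not overlap and the female ranges do, and the part of leukocytes in these values was not tested.

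Among 14 tested protease inhibitors outside the serpin family, 4 rose and 5 fell in female KO, and 4 rose and 6 fell in male KO, which is 64.3% called in females and 71.4% in males, beside 39.3% and 20.2% of all tested genes. Timp3, an inhibitor of metalloproteinases bound to the matrix, was 348 ± 5.6 CPM in male KO (SD, n = 3) and 581 ± 18 CPM in male WT (SD, n = 4; log2 -0.74 ± 0.030, adjusted p = 4.94e-19, edgeR), with a female log2 fold change of -0.15 ± 0.028 (adjusted p = 4.28e-05, edgeR). Tfpi2, a Kunitz-type inhibitor, rose by 0.47 ± 0.091 in female KO (adjusted p = 9.06e-05, edgeR) and had a log2 fold change of -0.73 ± 0.089 in male KO (adjusted p = 1.14e-07, edgeR). Among 8 tested cysteine proteases that serpins can inhibit, 3 rose and 1 fell in female KO, and 1 rose and 2 fell in male KO, or 50% and 37.5% called, beside the same 39.3% and 20.2%. Cathepsin L, Ctsl, fell in male KO (log2 -0.18 ± 0.028, adjusted p = 9.95e-06, edgeR) and was not called in females (log2 -0.02, adjusted p = 0.636, edgeR).

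Several marker lists of other kidney cells moved beside Serpinf1. The summed fibroblast list was 2611 to 2844 CPM in female KO, 3629 to 3910 in female WT, 1849 to 2042 in male KO and 3525 to 3766 in male WT, of which Col1a1 and Col1a2 made up 89.1% to 91.1%. Of its 9 tested genes, 5 fell and 2 rose in female KO, and 7 fell in male KO (77.8% called in each sex, beside 39.3% and 20.2% of all tested genes), and the fibroblast markers Dcn, Lum and Pi16 were under 1 CPM in every group mean. Serpinf1 stood at 4.08 to 4.19 CPM per 1000 CPM of this list in female KO and 8.97 to 11 CPM in female WT. In males it stood at 3.22 to 3.45 CPM in KO and 3.24 to 3.81 CPM in WT, so that the male ranges of this ratio overlap while the female ranges do not. The summed list of the distal nephron and collecting duct was 5.89 to 10.2 CPM in female KO, 25.8 to 29.8 in female WT, 9.77 to 12.4 in male KO and 15.6 to 18.8 in male WT, with Pvalb and Slc4a1 at 0 in all groups. In these bulk libraries fewer cells of a type and less RNA per cell cannot be told apart, and the part of such cells in the Serpinf1 values was not tested.

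**Figure D4:**
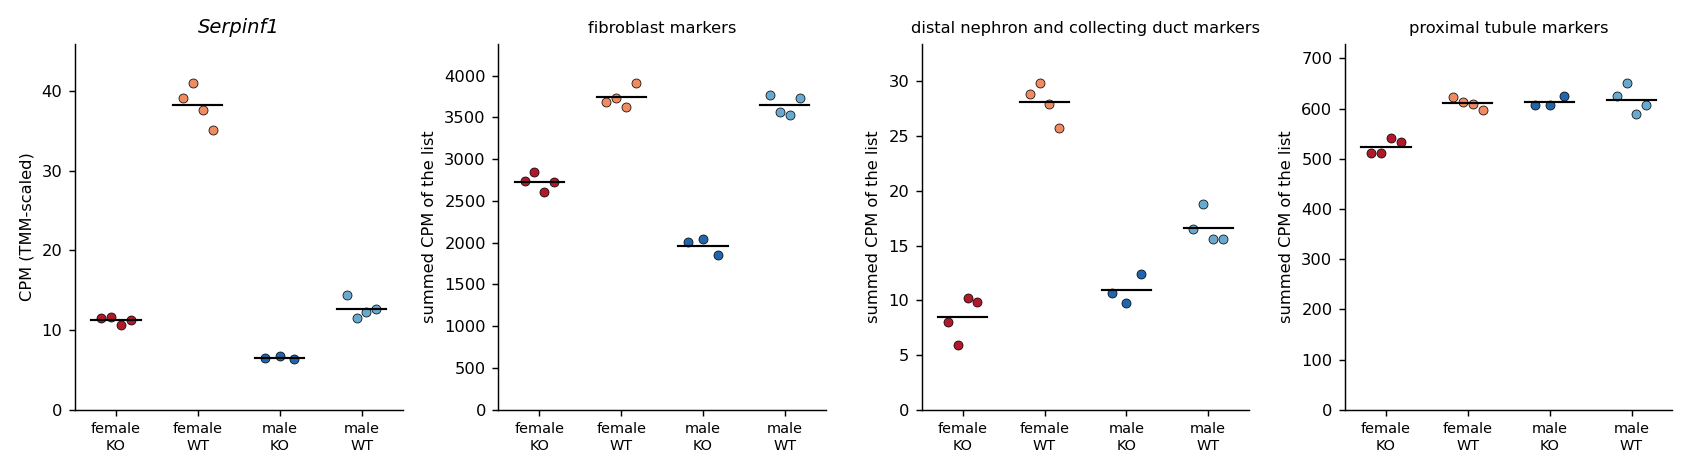
Serpinf1 (TMM-scaled CPM) beside the summed CPM of 3 marker lists in each library, with group means as bars and axes that start at 0. Female WT libraries are highest for Serpinf1 and for the distal nephron and collecting duct list, both WT groups are above both KO groups for the fibroblast list, and the female KO libraries are lowest for the proximal tubule list.

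The endothelial list, the cells on which PEDF is best known to act, summed to 38 to 49 CPM in female KO, 33 to 39.9 in female WT, 37.3 to 41.6 in male KO and 79.7 to 85.3 in male WT. Smooth muscle and pericyte markers summed to 3818 to 4412 CPM in female KO, 3916 to 3963 in female WT, 2980 to 3052 in male KO and 3512 to 3885 in male WT. Acta2 and Tagln, at 1815 and 1532 CPM in female KO, made up most of this sum. Of the 10 tested genes of that list, 2 rose and 5 fell in female KO, and 9 fell in male KO. That is 70% called in females and 90% in males, beside 39.3% and 20.2% of all tested genes. Podocyte markers summed to 1375 to 1555 CPM in female KO, 1098 to 1174 in female WT, 1316 to 1402 in male KO and 1444 to 1563 in male WT. Mesothelial markers, mainly Krt19 and Msln, summed to 537 to 559 CPM in female KO, 368 to 379 in female WT, 591 to 614 in male KO and 404 to 439 in male WT. By group mean, this sum ran from male KO through female KO and male WT down to female WT. That order was the reverse of that of Serpinf1 in all 4 groups, and it rests on Krt19 and Msln. Upk3b, of the same list, did not keep it, at 3.098 CPM in female KO, 3.254 in female WT, 3.355 in male KO and 3.037 in male WT. The part of mesothelial cells in the Serpinf1 values was not tested. The endothelial, smooth muscle and podocyte sums followed neither the order of Serpinf1 nor its reverse.

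The genes whose pattern over the 15 libraries was most like that of Serpinf1 were found by the Pearson correlation of log2 CPM among 10369 genes that averaged 5 CPM or more, with predicted and clone names left out. The 8 highest were Cp (r = 0.988), Gpx3 (0.987), Dab2 (0.985), Notch3 (0.982), Ext1 (0.982), Ltbp1 (0.975), Myo3b (0.972) and Galnt2 (0.972). The 15 libraries come from only 4 pools, so these values describe the order of 4 groups and carry no test. Cp, which encodes the copper-carrying ferroxidase ceruloplasmin, was 145 ± 10 CPM in female KO and 309 ± 15 CPM in female WT (SD, n = 4 each), and 97.5 ± 2.1 CPM in male KO (SD, n = 3) and 146 ± 8.9 CPM in male WT (SD, n = 4). Gpx3, the secreted glutathione peroxidase made by the proximal tubule, was 124.5 ± 1.9 CPM in female KO, 195 ± 11 in female WT, 91.6 ± 2.6 in male KO and 123 ± 6.4 in male WT. Dab2, an adaptor that works with megalin in endocytosis, was 44.3 ± 2.2 CPM in female KO, 69.5 ± 0.48 in female WT, 33.6 ± 0.60 in male KO and 43.5 ± 1.2 in male WT. Notch3, a receptor that is also among the smooth muscle and pericyte markers, was 44 ± 0.70 CPM in female KO, 70.9 ± 1.1 in female WT, 39.4 ± 1.8 in male KO and 47 ± 1.3 in male WT.

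**Figure D5:**
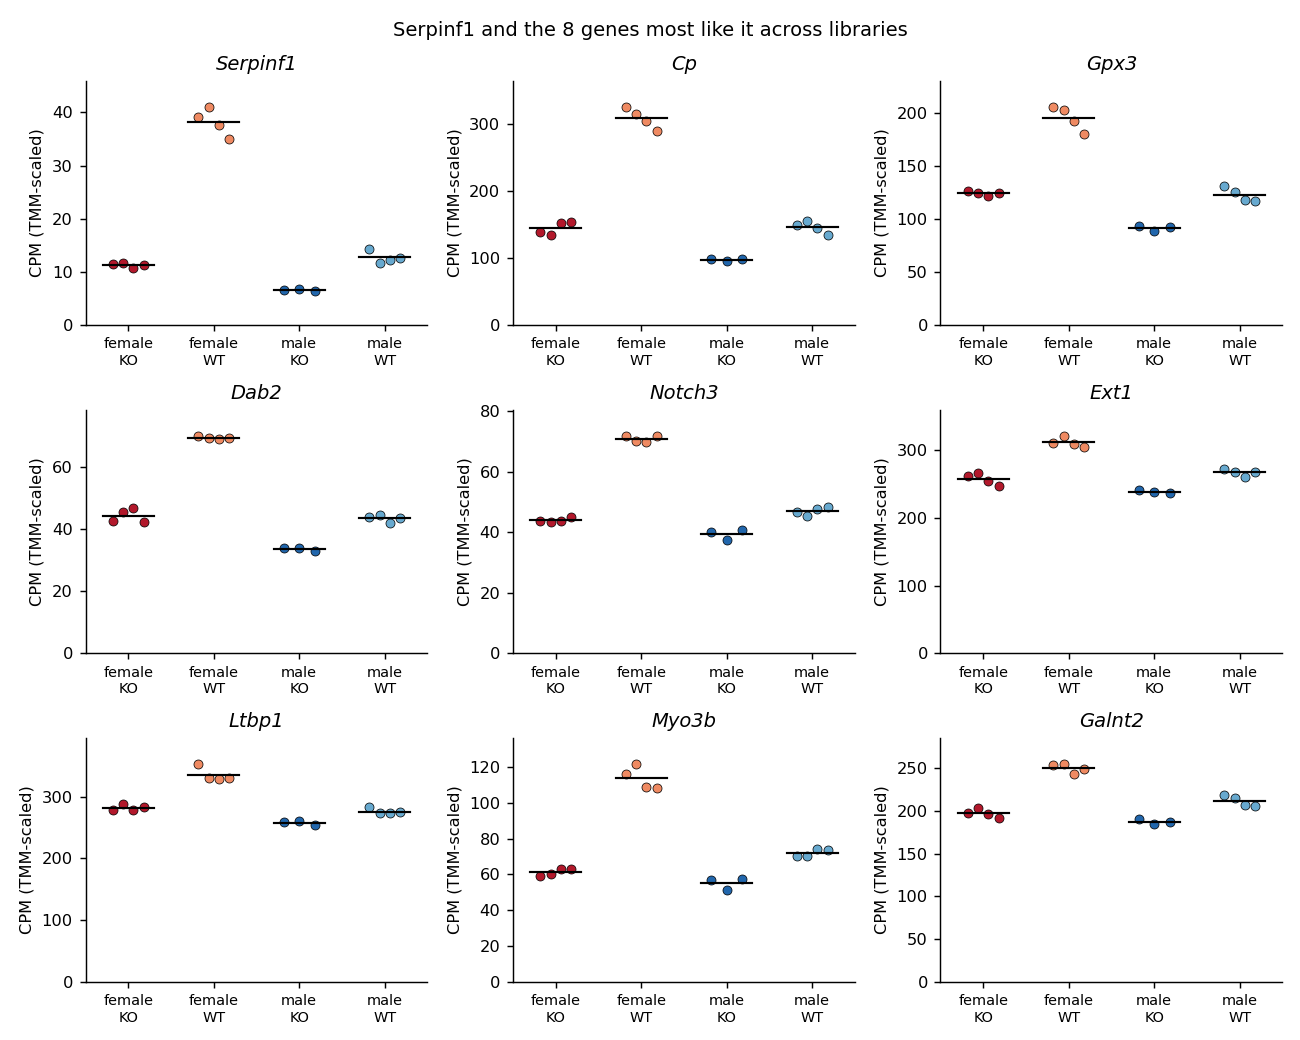
TMM-scaled CPM in each library for Serpinf1 and the 8 genes with the highest correlation to it, with group means as bars and axes that start at 0. In all 9 panels the mean of female WT is the highest and that of male KO the lowest, with female KO and male WT between them. For Notch3, Myo3b and Galnt2 the female KO libraries lie below all male WT libraries.

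Among the 13 genes annotated within 100 kb of Serpinf1 on chromosome 11, 10 were listed in the counts and 9 tested. In female KO 2 rose (Rpa1 and Prpf8) and 2 fell (Mir22hg and Smyd4), and in male KO 2 fell (Mir22hg and Scarf1). The called shares of 44.4% and 22.2% were near the 39.3% and 20.2% of all tested genes. The call of Smyd4 was lost without female WT replicate 1 or 2 or female KO replicate 2, 3 or 4 (adjusted p up to 0.239), and that of Scarf1 without male WT replicate 1, 3 or 4 or male KO replicate 1 or 2 (adjusted p up to 0.197). Rpa1, a subunit of the single-stranded DNA binding protein RPA, rose by 0.24 ± 0.039 in females (adjusted p = 5.93e-06, edgeR). Mir22hg, the host transcript of miR-22, had log2 fold changes of -0.21 ± 0.052 in females (adjusted p = 0.00147, edgeR) and -0.23 ± 0.057 in males (adjusted p = 0.0024, edgeR). Serpinf2, the neighbouring serpin that encodes the plasmin inhibitor alpha 2-antiplasmin, lies at chr11:75431732-75439591 and had under 1 CPM in each group mean. It was 0.906 ± 0.17 CPM in female KO and 0.859 ± 0.36 CPM in female WT (SD, n = 4 each; log2 0.09 ± 0.29, adjusted p = 0.841, edgeR), and its male log2 difference was 0.07 ± 0.31 (adjusted p = 0.912, edgeR).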

How the data were processed

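Counts per gene symbol, as whole numbers, and a table of CPM values were deposited by the authors. Per the submitters' processing notes, STAR 2.6.1, featureCounts (version not given), edgeR 3.26.8, limma 3.40.6 and the build mm10 were used, and per the labels' protocols the libraries were strand-specific and made from mRNA. Neither the annotation nor the strand setting is given in the sources used here. Deposited CPM values equal counts over library totals to within 5.09e-11 and served only as that check. The 8 serpins, the gene lists and the tests were chosen with earlier results of these data known. In R 4.3.3, edgeR 4.0.16 (limma 3.58.1) kept 13912 of 24421 genes with filterByExpr (minimum count 10, minimum total 15), scaled by TMM, and fitted group means in 1 robust quasi-likelihood model for 5 contrasts. SE is the log2 fold change over the square root of F. With 3 counts as the floor, levels below 0.0971 to 0.171 CPM were not resolved, and intervals cover the spread between libraries of a pool. Simulated data with the same depths held 13912 genes, of which 100 were changed at each fold. They gave 77% recovery of 1.5-fold and 93% of 2-fold changes in the female comparison (9.57% of calls false). The male comparison gave 78% and 87% (4.62% false). The female false share was above the threshold of 0.05. In the data 39.3% of genes were called in females and 20.2% in males, so the simulated shares may not carry over. No 2 libraries of a group agreed within sampling noise. Positions, exon lengths and transcripts are from GENCODE M21 on GRCm38, with 1 gene per symbol for 96.2% of genes tested. Genes were named by rule: all 8 serpins, the 6 other serpins with the highest CPM per kilobase (1 of them is not reported here, nor counted among the other serpins), up to 3 called genes per direction, sex and list, a fixed set of partner genes, the 8 genes nearest Serpinf1 by correlation, and tested neighbours within 100 kb. Alternatives were DESeq2 size factors, upper quartile and library size scaling, the DESeq2 1.42.0 Wald test, no filter, a filter of 5 CPM in at least 3 libraries, only the groups compared, a replicate block, counts summed per pool, and leaving out each library. The targeted gene, Malrd1 (Diet1), was not analysed here.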

Additional observations from a re-analysis of the deposited data

Results flagged for a closer look

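The KO effect differed between females and males for 7 of the serpins described, by the interaction term of the edgeR fit. This difference in log2 fold change was 0.19 for Serpine2, 0.16 for Serpinh1, 0.46 for Serping1, 1.30 for Serpinb2 and 0.57 for Serpini1. It was -0.32 for Serpinb9 and -0.26 for Serpinb6b. The calls of Serpine2, Serping1 and Serpini1 were lost in 1, 4 and 10 of the 15 fits that leave out a library. Each sex and genotype is a single pool, so a difference between sexes and a difference between pools cannot be told apart.

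Serpina1b was 3.74 CPM in female KO replicate 3, below the other 3 libraries of that group at 4.34 to 4.44 CPM. This was 1 flag among 39 groups of 4 libraries checked, where chance gives about 1 in 20 groups. Of its 50-base words, 29.5% occur in another gene.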

How the results depend on the processing

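The counts of genes and of the 8 serpins called kept within 1.5 times under the other scalings, the DESeq2 test, both filters and the fit of only the groups compared. Scaled by library size alone, 39.9% of female KO calls were higher, against 52.7% with TMM, and the shares were 46.2% and 62.4% for the female minus male difference and 55.2% and 44.1% for female against male WT. No serpin among the 8 changed sign under another scaling. Leaving out 1 library gave 4901 to 5769 genes and 3 to 4 of the serpins called in female KO, 2077 to 3051 and 3 to 5 in male KO, 1836 to 2335 and 2 to 4 for the difference, 3386 to 4134 and 4 for the sexes in WT, and 913 to 1443 and 2 to 3 for the sexes in KO.

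Counts summed per pool leave 4 values, a KO effect and a sex effect shared by both strata, and 1 residual degree of freedom. In that fit 1 gene was called for KO and 7 for sex, with 0 of the serpins in each contrast. The shared Serpinf1 change was -1.40 for KO and 1.203 for female against male (adjusted p = 0.357). A shared effect changes the sign where the sexes moved apart. Against the male KO effect it was -0.046 for Serpinb9, 0.1 for Serpina3k, 0.49 for Serpinb2, 0.042 for Serpina1b, -0.032 for Plau, 0.041 for Plat, -0.118 for Hspa1a, 0.375 for Procr, 0.025 for Ctsz, -0.078 for Spint2, 0.137 for Col4a1, 0.115 for Col4a2, 0.099 for Pcolce, 0.118 for Hspa4l, -0.034 for Tlcd2 and 0.061 for Prpf8. Against the female KO effect it was -0.061 for Plxdc2, -0.137 for Lrp1, -0.04 for C4b, -0.127 for Htra1, 0.058 for Wfdc2, -0.136 for Tfpi2, 0.088 for Hspa1b, -0.04 for Hspb8 and -0.241 for Cfb. Against the sex difference in KO cells it was -0.044 for Serpine2, -0.008 for Serpinb6a and 0.05 for Serpinb9.

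Deviations from the group mean correlated at 0.004 to 0.201 between same-numbered KO and WT libraries. Differently numbered libraries were not compared, so these values do not settle whether replicate numbers pair the libraries. With the replicate block, 5909 genes were called in female KO, 3092 in male KO, 2491 for the difference, 4426 for the sexes in WT and 1435 in KO, and the same numbers of the 8 serpins as without it. The block turned the sign of 3 changes that were not called, Serpina3k (0.047) and Prpf8 (0.004) in males and Serpinb8 between the sexes in WT (-0.002).

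Leaving out 1 library turned the sign of some changes that were not called, several of them with a wide range. In female KO these were Serpinh1 (-0.042 to 0.002), Hspa1b (-0.065 to 0.005), Plxdc1 (-0.038 to 0.565), Scarf1 (-0.413 to 0.088), Serpinf2 (-0.127 to 0.372) and Tlcd2 (-0.19 to 0.003). In male KO they were Chordc1 (-0.056 to 0.007), Hspa4l (-0.115 to 0.015), Procr (-0.065 to 0.038), Prpf8 (-0.014 to 0.011), Serpina3k (-0.1 to 0.041), Serpinf2 (-0.065 to 0.216), Tlcd2 (-0.117 to 0.102), Tmprss2 (-0.1 to 0.002) and Wdr81 (-0.078 to 0.008). For the female minus male difference they were Serpinb5 (-0.042 to 0.806) and Serpinb8 (-0.011 to 0.408), and between the sexes in WT Serpinb8 (-0.067 to 0.262).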
